A study of Mus musculus with 48 samples.

Results

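The 8 genes described here encode the liver enzymes that lengthen and desaturate fatty acids: the elongases Elovl1, Elovl2, Elovl3, Elovl5 and Elovl6 and the desaturases Fads1, Fads2 and Scd1. They were taken by gene symbol from a deposited table of 22354 genes, in which each symbol occurred once, and all 8 were among the 13646 genes that passed the filter on low counts. RNA was measured by poly-A RNA-seq in 48 livers of C57BL/6 mice, stated to be males 4 to 6 months old. The knockout group (KO, 23 mice) carried a floxed Bmal1 gene with Cre driven by aP2, a promoter used to target fat cells, and the controls (WT, 25 mice) were littermates whose alleles the labels do not give. All mice spent 36 h in constant darkness and were killed in darkness, every 4 h from 0 to 20 h, with 4 mice per genotype and time except 5 WT and 3 KO at 16 h by the sample labels, where the design text states 4 of each. The deletion was therefore aimed at fat cells, while the tissue sequenced was liver.

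Elongases add carbon units to a fatty acyl chain in the endoplasmic reticulum, and desaturases put double bonds into it with electrons passed on by cytochrome b5. Elovl6 and Scd1 act on the saturated and monounsaturated products of fatty acid synthesis. Elovl2 and Elovl5, with Fads1 (the delta-5 desaturase) and Fads2 (the delta-6 desaturase), build long polyunsaturated fatty acids from dietary precursors, and Elovl1 and Elovl3 act on long saturated and monounsaturated chains. In liver many of these genes are known targets of SREBP-1, the factor encoded by Srebf1, and Elovl3 is known as a strongly daily gene of liver.

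Elovl5 was the member with the clearest daily pattern, high around 0 h and low around 12 to 16 h in both genotypes. Its level was higher in KO than in WT by 0.47 ± 0.14 (log2 ± SE) on average over the 6 times, without passing the threshold (edgeR adjusted p = 0.0735). No member differed between the genotypes at an adjusted p under 0.05, at any time or over all of them. Elovl3 and Fads2 varied between mice of 1 group more than 98.1% and 98.6% of genes. Fads1, Fads2 and Elovl1 varied together from mouse to mouse, along with a trend of the libraries with GC content. Elovl5 varied with Elovl6, Elovl3 and Elovl2, also with that trend taken out.

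The counted reads per library, without albumin, ran from 12841969 to 13009797. Albumin is held in the table as the only gene marked as highly expressed and was left out. Arntl, the gene that encodes BMAL1, cycled in liver in both genotypes: it lay between 29.3 and 43.8 CPM (a gene's count relative to the library's scaled total) in WT and between 26.8 and 36.4 in KO at 0 h, and between 0.819 and 3.41 in WT and 1.58 and 11.5 in KO at 12 h. Its KO minus WT difference over the 6 times was 0.30 ± 0.16 (adjusted p = 0.347), so liver Arntl does not check the genotype labels. The label of the cell type reads adipocyte, yet the defining adipocyte genes Adipoq, Plin1, Lep, Retn and Cfd summed over all 48 libraries to 46, 19, 2, 8 and 65 counts, while the list of hepatocyte genes stood between 23865 and 60940 CPM. The whole adipocyte list of 10 genes stood at 198 to 1682 CPM in WT and 195 to 3344 in KO, since Car3, Plin4, Lpl, Fabp4 and Cidec were present (medians of 9558, 1125.5, 217.5, 107 and 98.5 counts). Xist was at 3029 to 13969 counts in every library while 3 genes of the Y chromosome (Kdm5d, Uty, Eif2s3y) were each seen in 1 read over all libraries, which goes against the stated sex. Libraries are named by genotype, time and replicate. WT_0h replicate 3 was highest in adrenal cortex genes (133 CPM summed) and acute phase genes (37094 CPM), KO_0h replicate 2 in pancreas genes (257 CPM), and KO_16h replicate 2 in the hepatocyte list. WT_16h replicate 5 was highest in lymphocyte genes (1212 CPM, against a WT median of 11.9), and it was also the highest library of Fads1 and Fads2. Without the first 3 of these libraries, of the members' calls given below only the KO rhythm of Elovl1 (adjusted p = 0.0709) and the relation of Elovl2 with Elovl5 (r = 0.38, adjusted permutation p = 0.0792) were lost. Without WT_16h replicate 5 the WT rhythm of Fads1 was not called (adjusted p = 0.0856). The relations of Elovl2 with Elovl5 and of Elovl3 with Elovl6 were also lost (adjusted permutation p = 0.0720 and 0.0560). Newly called were the genotype difference of Elovl5 (edgeR adjusted p = 0.0236) and the relation of Elovl2 with Srebf1 (r = −0.42, adjusted permutation p = 0.0488). The relation of Fads1 with Fads2 was at r = 0.73. In whole liver, fewer cells of a type and less RNA per cell cannot be told apart.

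Per kilobase of exon (GENCODE M21 lengths), Scd1 had the highest median level over the 48 libraries, at 231 CPM per kb, followed by Elovl5 at 199, Elovl2 at 139 and Fads1 at 117. Fads2 followed at 49.3 CPM per kb. The 3 others were low, with Elovl1 at 13.6, Elovl6 at 7.05 and Elovl3 at 4.98 CPM per kb. Library-to-library ranges of neighbours in this order overlap widely, since the highest library exceeded the lowest by 58.1-fold for Elovl3, 40.9-fold for Fads2 and 19.5-fold for Scd1, and by 3.47-fold for Elovl2, the steadiest member. Within a group of mice, the SD of log2 CPM was 1.05 for Elovl3, 1.11 for Fads2 and 0.74 for Scd1, against a median of 0.386 over 11986 genes with at least 1 CPM. For Elovl2 it was 0.35, and 41.7% of genes had a smaller one.

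**Figure D1:**
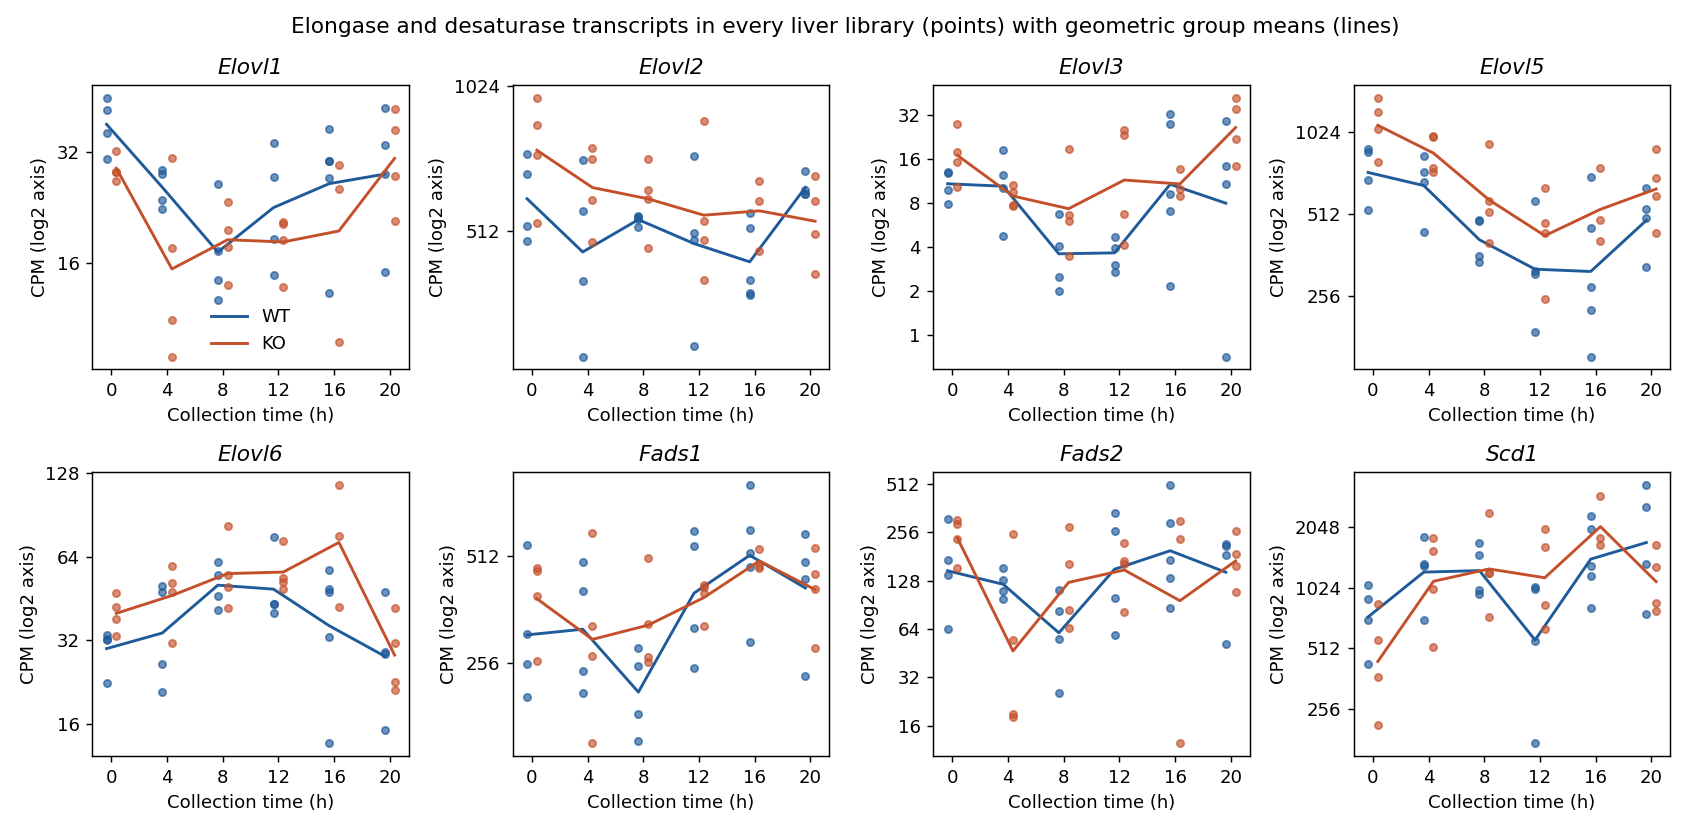
CPM of each member (log2 axis) against collection time in hours, with 1 point per liver and lines through the geometric group means of WT (blue) and KO (red). Elovl5 is high at 0 h and low at 12 to 16 h in both genotypes, and the points of the genotypes overlap in most panels and times; single KO points of Fads2 lie as low as 12.4 CPM.

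Elovl5 (ENSMUSG00000032349, mm9 chr9:77765171-77832326) elongates polyunsaturated fatty acids. Its promoter is shown because this was the member with a 24 h rhythm called in both genotypes, and that of Elovl6 (ENSMUSG00000041220, mm9 chr3:129235304-129341413) because its fitted peak lay in the other part of the day. RefSeq promoters (250 bases before to 50 after the start, GRCm38.p6, plus strand) were searched on both strands for an E-box (CACGTG, the core of the site bound by CLOCK and BMAL1), a CCAAT box (CCAAT), a nuclear receptor element (AGGTCA), a sterol response element (TCACNCCAC) and a D-box (TTATGNAA). Capitals mark matches, which may lie on the minus strand. The Elovl5 window is chr9:77917115-77917414 and the Elovl6 window chr3:129532136-129532435.
Elovl5: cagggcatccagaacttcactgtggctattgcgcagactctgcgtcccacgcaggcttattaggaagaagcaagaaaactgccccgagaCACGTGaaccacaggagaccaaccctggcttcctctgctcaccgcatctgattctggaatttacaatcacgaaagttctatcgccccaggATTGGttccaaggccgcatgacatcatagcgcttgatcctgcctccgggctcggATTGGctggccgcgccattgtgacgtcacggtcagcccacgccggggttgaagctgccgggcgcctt
Elovl6: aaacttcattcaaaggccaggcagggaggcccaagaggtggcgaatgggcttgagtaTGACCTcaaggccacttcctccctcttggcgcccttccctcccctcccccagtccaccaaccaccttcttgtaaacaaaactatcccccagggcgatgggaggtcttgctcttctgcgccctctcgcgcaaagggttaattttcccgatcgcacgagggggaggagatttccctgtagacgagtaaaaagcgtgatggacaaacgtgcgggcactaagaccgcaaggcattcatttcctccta
The Elovl5 window held an E-box that began 161 bases before the start site, and CCAAT boxes at −71 and −17, on the minus strand. Of 32851 RefSeq promoters, 7.15% hold this E-box, 37.41% a CCAAT box, 16.26% a receptor element, 1.24% this sterol element and 3.38% this D-box. The Elovl6 window held 1 receptor element, at −193. The other entries were 2 for Elovl1, with a CCAAT box at −35 in one and a receptor element at −95 in the other, 2 for Elovl2 and 1 for Fads2. The Elovl2 and Fads2 windows held none of these 5 motifs, and Elovl3, Fads1 and Scd1 have no entry.

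Elovl5 stood in WT at 684, 867, 532 and 887 CPM at 0 h and at 441, 728, 671 and 835 at 4 h. At 8 h it was 483, 359.8, 487 and 341, at 12 h 318, 189.9, 308 and 574, at 16 h 278, 456, 229, 154 and 699, and at 20 h 536, 328, 639.9 and 494 CPM. The 0 h livers lay above all 8 h livers, and they overlapped those of 12 and 16 h through 1 liver at each time. In KO the values were 1046, 1365, 792 and 1217 CPM at 0 h, 979, 993, 733 and 754 at 4 h, and 523, 923, 571 and 402 at 8 h. They were 249.8, 438, 637 and 475 at 12 h, 489, 409.7 and 756 at 16 h, and 599, 884, 435 and 696 at 20 h. Here the 0 h livers all lay above those of 12 and 16 h. Between genotypes the livers overlapped at every time. For the other members, the times printed below were not set in advance. Whether livers of different times overlap was not tested, and its share over all genes was not computed.

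A 24 h cosine fitted in each genotype had an amplitude for Elovl5 of 0.65 ± 0.15 in WT and 0.61 ± 0.12 in KO (log2 distance from the mean to the peak, ± SE), which is a peak over trough of 2.47-fold and 2.35-fold. The fitted peak was at 1.42 ± 0.86 h in WT and 1.07 ± 0.77 h in KO. The edgeR test of the rhythm gave adjusted p = 0.00354 in WT and 0.0055 in KO, and these calls were kept when any single library was left out, with adjusted p up to 0.0103 in WT and 0.0176 in KO. A test of any difference among the 6 times, which uses 5 degrees of freedom rather than 2, gave adjusted p = 0.0606 in WT and 0.0588 in KO.

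Elovl3 (ENSMUSG00000038754, mm9 chr19:46206387-46210184) acts on long saturated and monounsaturated chains. In WT it was low at 8 h, at 2.01, 2.51, 6.76 and 4.04 CPM, and at 12 h, at 3.03, 2.69, 4.66 and 3.91, and at 20 h it stood at 14.4, 10.8, 28.9 and 0.717. In KO it was 6.04, 18.8, 6.59 and 3.45 at 8 h, 4.14, 24.99, 23.1 and 6.68 at 12 h, and 14.2, 35.1, 21.8 and 41.6 at 20 h. The groups overlapped at each of these times, and the single WT liver at 0.717 CPM rested on 10 counts, the lowest count of any member in any library. The amplitude was 0.78 ± 0.36 in WT, with a peak at 22.0 ± 1.67 h, and 0.78 ± 0.23 in KO, with a peak at 20.2 ± 1.16 h. The rhythm tests gave adjusted p = 0.0539 and 0.117, and in WT 6 of the 48 fits without 1 library passed, over a range of 0.0128 to 0.138.

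Elovl6 elongates palmitate made by fatty acid synthase. In WT it stood at 22.4, 32.3, 33.4 and 32.1 CPM at 0 h, 46.2, 61.2, 55.2 and 41.1 at 8 h, and 28.6, 29.0, 47.6 and 15.1 at 20 h. In KO it was 42.1, 47.2, 33.0 and 38.2 CPM at 0 h, 54.9, 82.8, 49.6 and 41.9 at 8 h, 42.1, 75.7 and 116 at 16 h, and 21.2, 41.9, 22.5 and 31.2 at 20 h. In WT all 8 h livers lay above all 0 h livers, and in KO these times overlapped. Fitted peaks were at 10.0 ± 1.26 h in WT and 10.8 ± 1.30 h in KO, with adjusted p = 0.0666 and 0.0742.

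Elovl1 (ENSMUSG00000006390, mm9 chr4:118100698-118105558), which makes very long saturated and monounsaturated chains, stood in WT at 36.0, 41.7, 44.9 and 30.6 CPM at 0 h and 26.2, 12.7, 14.4 and 17.2 at 8 h, with no overlap between these times. In KO the 0 h values of 26.7, 28.2, 28.1 and 32.2 CPM also lay above those of 8 h, 17.6, 23.4, 13.9 and 19.6. The rhythm test gave adjusted p = 0.0620 in WT, with a peak at 22.0 ± 1.20 h, and 0.0437 in KO, with a peak at 20.7 ± 1.39 h. The KO call is not a firm one: in leaving out 1 of the 48 libraries at a time the adjusted p ranged from 0.0148 to 0.123, and 15 of the 48 ended the call.

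Elovl2 (ENSMUSG00000021364, mm9 chr13:41277864-41315774), which elongates the longer polyunsaturated chains, ranged from 279.5 to 741 CPM over the WT livers and from 404 to 969 over the KO livers, so the genotypes overlapped over most of the range. Its amplitudes were 0.16 ± 0.11 and 0.18 ± 0.10, with adjusted p = 0.474 and 0.362.

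The delta-5 desaturase Fads1 (ENSMUSG00000010663, mm9 chr19:10257378-10271360) and the delta-6 desaturase Fads2 (ENSMUSG00000024665, mm9 chr19:10138654-10175993) lie in the same gene cluster. Fads1 in WT was 281, 184, 154 and 251 CPM at 8 h and 603, 293, 519.8, 477 and 812 at 16 h, with no overlap. In KO it was 329, 505, 258 and 265 at 8 h and 479, 534 and 473 at 16 h, where one 8 h liver reached into the 16 h range. Amplitude and peak of Fads1 were 0.50 ± 0.16 and 17.3 ± 1.25 h in WT (adjusted p = 0.0314) and 0.31 ± 0.13 and 17.2 ± 1.56 h in KO (adjusted p = 0.375). The WT call ended in 8 of the 48 fits without 1 library, over which the adjusted p ran from 0.00808 to 0.0856. That Fads1 passed in WT and not in KO does not show a difference, since the test of the difference of rhythms gave adjusted p = 1.00.

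Fads2 in WT stood at 112, 25.5, 55.8 and 83.3 CPM at 8 h and 292, 86.4, 173, 133 and 508 at 16 h. Its KO livers at 4 h stood at 249.7, 54.8, 18.0 and 18.9 CPM and at 16 h at 232, 303 and 12.4, so the KO mice of 1 time differed by more than 10-fold. Fitted peaks were at 18.5 ± 1.77 h in WT and 18.7 ± 3.15 h in KO, and neither rhythm passed (adjusted p = 0.251 and 0.549).

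Scd1 (ENSMUSG00000037071, mm9 chr19:44468941-44482199), the delta-9 desaturase that makes oleate from stearate, stood in WT at 1058, 709, 903 and 427 CPM at 0 h and 759, 3349, 2579 and 1342 at 20 h. In KO it was 368, 212, 563 and 851 at 0 h and 1812, 1669 and 2924 at 16 h. These do not overlap, and they are the KO times with the lowest and highest group mean. The peak was fitted at 20.4 ± 3.61 h in WT (amplitude 0.27 ± 0.26) and at 13.0 ± 1.43 h in KO (0.65 ± 0.24), with adjusted p = 0.540 and 0.161, and the difference of the rhythms had adjusted p = 1.00. Scd1 has close copies (Scd2, Scd3 and Scd4), and the sources used here do not say how reads that fit more than 1 of them were assigned.

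Counted over the 8 members, 2 had a rhythm in WT (Elovl5 and Fads1) against a background of 16.3% of all genes tested, and 2 in KO (Elovl5 and Elovl1) against 17%. With any difference among the 6 times as the test, 0 were called in either genotype, where 8.55% and 9.73% of genes were, and 5 of 8 in WT and 4 of 8 in KO had an unadjusted p under 0.05, as 24% and 26.9% of genes did. With the GC trend described below as a covariate, this test called 4 members in WT (Elovl1, Elovl3, Elovl5 and Fads1), where 18.4% of genes were called, and 0 in KO, where 16% were. One rhythm shared by both genotypes was added after the data had been seen. Under it 5 members were called (Elovl1, Elovl3, Elovl5, Elovl6 and Fads1), where 43.7% of genes were. Elovl5 then peaked at 1.26 ± 0.57 h, Elovl6 at 10.4 ± 0.90 h, Fads1 at 17.2 ± 0.96 h, and Elovl1 and Elovl3 at 21.3 ± 0.91 h and 21.2 ± 1.07 h. The difference of the rhythms was called for 0 members, and for 0.00733% of genes. No member's rhythm is thereby shown to differ between the genotypes, or to be the same.

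**Figure D2:**
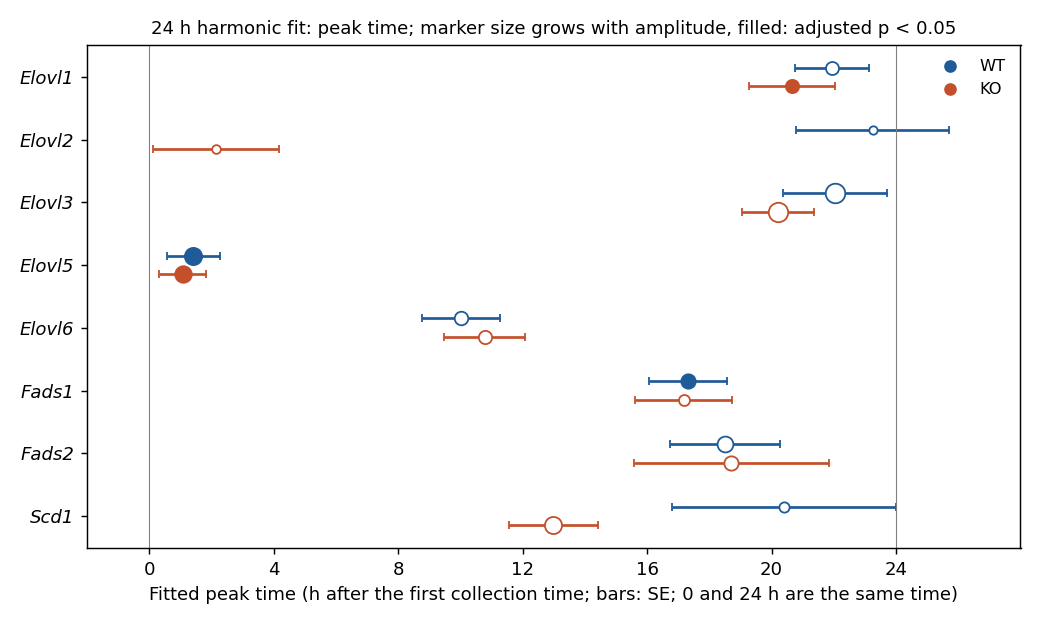
Fitted peak time in hours (with SE) of the 24 h cosine of each member in WT (blue) and KO (red), with marker size growing with amplitude and filled markers at adjusted p under 0.05. Elovl5 peaks near 1 h in both genotypes, Elovl6 near 10 h, and Fads1 and Fads2 near 17 to 19 h.

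Knockout and control livers were compared over the 6 times with equal weight for each time. Among the elongases the KO minus WT difference of log2 level was 0.68 ± 0.26 for Elovl3 (adjusted p = 0.184), 0.47 ± 0.14 for Elovl5 (0.0735), 0.35 ± 0.14 for Elovl6 (0.195), 0.20 ± 0.10 for Elovl2 (0.292) and −0.26 ± 0.13 for Elovl1 (0.326). Among the desaturases it was 0.10 ± 0.14 for Fads1 (adjusted p = 0.718), 0.09 ± 0.28 for Fads2 (0.888) and −0.01 ± 0.20 for Scd1 (0.991). By edgeR's quasi-likelihood test 0 of 8 members were called, where 1.4% of all genes were, and 3 of 8 had an unadjusted p under 0.05 (Elovl3, Elovl5 and Elovl6), as 17.1% of all genes did. The median of the 8 was 0.15, beside −0.00 over all genes tested, of which 48.9% were higher in KO. Elovl5 was higher in KO at 6 of 6 times, Elovl2 and Elovl6 at 5, Elovl3 at 4, Fads2 and Scd1 at 3, and Elovl1 and Fads1 at 2. These are the parts of the same mean differences, and the share of all genes with 1 direction at 6 of 6 times was not computed.

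The Elovl5 difference lies at the edge of the threshold, and 4 of the 48 single libraries decide its call. Its adjusted p was 0.0362 without WT_12h replicate 4, 0.0481 without WT_16h replicate 2, 0.0236 without WT_16h replicate 5 and 0.0482 without KO_16h replicate 2, with differences of 0.49 to 0.54. Over all 48 such fits the difference ran from 0.43 to 0.54 and the adjusted p from 0.0236 to 0.176. With DESeq2 it was 0.47 ± 0.14 at adjusted p = 0.0378, where 356 genes were called in place of 191. Without both 16 h groups Elovl5 was at 0.45 ± 0.13 (adjusted p = 0.0699), Elovl6 at 0.22 ± 0.13 (0.438) and Elovl3 at 0.92 ± 0.27 (0.0699).

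**Figure D3:**
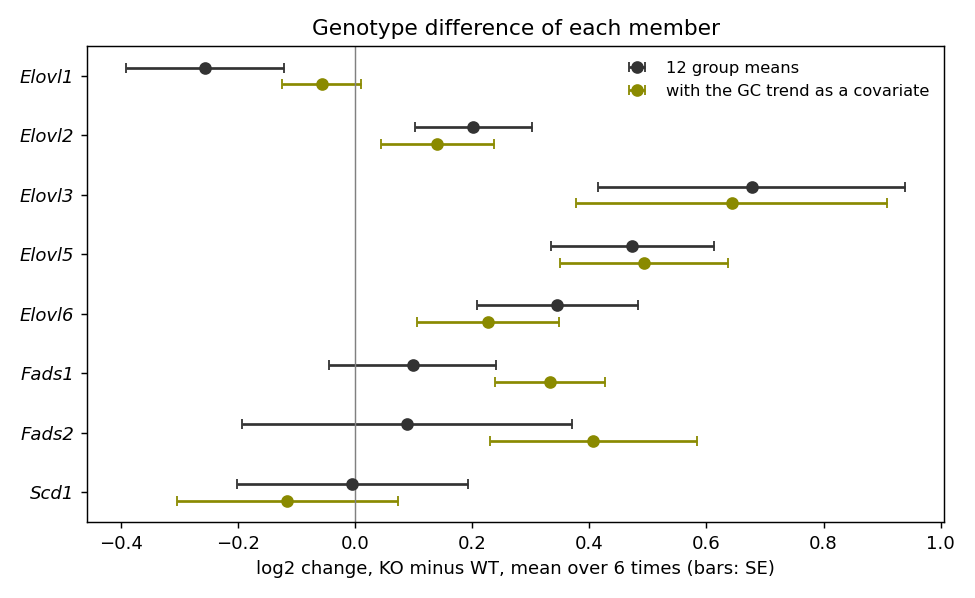
KO minus WT log2 difference of each member over 6 times with its SE, from the fit of 12 group means (grey) and with the GC trend of the library added as a covariate (olive). Elovl3, Elovl5 and Elovl6 lie to the right of 0 in both fits, and Fads1 and Fads2 move to the right in the second, to 0.33 and 0.41.

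At single times 0 of 8 members were called, where 0.0147%, 0.0366%, 0%, 0%, 0.022% and 0% of genes were at 0, 4, 8, 12, 16 and 20 h. The lowest unadjusted p of a member was that of Elovl3 at 12 h, where KO exceeded WT by 2.04 ± 0.67 (adjusted p = 0.908). Elovl6 at 16 h followed, at 0.96 ± 0.34 (adjusted p = 0.559). The test of any genotype difference that varies with time called 0 members and 0.00733% of genes, and its lowest p among members was that of Elovl3 (adjusted p = 0.953).

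One library decides the 4 h values. Without KO_4h replicate 1, the KO minus WT difference at 4 h was −2.0003 ± 0.72 for Fads2 (adjusted p = 0.0398) and −1.02 ± 0.34 for Elovl1 (adjusted p = 0.0292), and 24.6% of genes were called. With it they were −0.53 ± 0.69 and −0.59 ± 0.33, neither of them called. The other KO livers of 4 h stood at 54.8, 18.0 and 18.9 CPM for Fads2, below the WT livers at 129.9, 153, 99.1 and 110.4. For Elovl1 they stood at 17.5, 11.2 and 8.89 CPM, below the WT livers at 28.6, 27.8, 23.7 and 22.5. The GC trend of the libraries moved with this: its slope was 0.48 in KO_4h replicate 1 and −0.35, −0.80 and −0.68 in replicates 2, 3 and 4. With this slope as a covariate and all 48 libraries, the 4 h differences were −0.09 ± 0.44 for Fads2 and −0.10 ± 0.17 for Elovl1 (adjusted p = 0.956 and 0.850).

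The libraries differ by such a trend. In each library, log2 CPM of a gene relative to its mean over libraries was regressed on the GC content of the gene's transcript, and the slope, in log2 units per 10 points of GC, ran from −0.80 to 0.61. It averaged 0.09 in WT (SD 0.39, n = 25) and −0.10 in KO (SD 0.38, n = 23). The first principal component of the deviations of mice from their group means held 42.6% of their variance and had an r of 0.99 with the slope. Transcripts of Fads2, Elovl1 and Fads1 are richer in GC, at 54.4%, 52.5% and 52.2%, than those of Elovl5, Elovl2 and Elovl6, at 44.8%, 44.0% and 44.0%, around a median of 49.5% over genes. Between mice, deviations from the group mean had an r with the slope of 0.89 for Elovl1, 0.80 for Fads2, 0.79 for Fads1, 0.07 for Elovl5, −0.16 for Elovl3, −0.37 for Scd1, −0.38 for Elovl2 and −0.52 for Elovl6, over 48 libraries. As the slope is computed from the same libraries, these are descriptions. Of all genes, 6.76% had a larger r than Elovl1, 14.3% than Fads2 and 14.9% than Fads1.

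The slope was added as a covariate after the data had been seen. Over the 6 times 0 of 8 members were then called for KO minus WT, where 1.52% of genes were. Fads1 was at 0.33 ± 0.09 (adjusted p = 0.0621) in place of 0.10 ± 0.14, Fads2 at 0.41 ± 0.18 (0.259) in place of 0.09 ± 0.28, and Elovl1 at −0.06 ± 0.07 (0.755) in place of −0.26 ± 0.13. Elovl6 was at 0.23 ± 0.12 (0.383) in place of 0.35 ± 0.14, with its unadjusted p no longer under 0.05, and Elovl5 at 0.49 ± 0.14 (0.0706). By the same edgeR test the unadjusted p of Fads1 and of Fads2 came under 0.05 (0.00106 and 0.0264). That of Elovl3 and of Elovl5 stayed under it. The share of all genes with an unadjusted p under 0.05 was not computed for this fit. The rhythm in WT was called for 4 of 8 members, where 29.6% of genes were: Fads1 (adjusted p = 0.00143), Elovl5 (0.00193), Elovl1 (0.00305) and Elovl3 (0.0369). In KO it was called for 1 of 8, Elovl5 (adjusted p = 0.00543), where 21.3% of genes were, and Elovl1 was no longer called (0.189). Whether the trend is of the libraries or of the livers cannot be told apart here.

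Levels of 2 members were then compared from mouse to mouse, as deviations from the mean of their own genotype and time, with a two-sided permutation test within groups (36 relations: 28 pairs of members and 8 with Srebf1). Of these, 10 passed at an adjusted permutation p under 0.05 for Pearson's r. All 10 were positive, 7 between members and 3 with Srebf1. The share of other pairs of genes that would pass was not computed, so these counts are not shown to be particular to the members. The tightest joined Elovl1 with Fads2 (Pearson's r = 0.78, Spearman's rho = 0.70), Fads1 with Fads2 (r = 0.74, rho = 0.80) and Elovl1 with Fads1 (r = 0.69, rho = 0.64), each with a permutation p of 1e-05 for r, the smallest that 100000 resamples can give. Without the 2 livers farthest from the median of the first gene these r values were 0.73, 0.69 and 0.70. Fads1 and Fads2 lay on the same side of their group means in 44 of 48 libraries, and the SD within a group was 1.11 for Fads2 against 0.52 for Fads1. In WT and KO alone r for this pair was 0.87 and 0.66.

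The other set was Elovl5 with Elovl6 (r = 0.53, rho = 0.49, adjusted permutation p = 0.0123), Elovl3 with Elovl5 (r = 0.49, rho = 0.53, adjusted permutation p = 0.0252), Elovl3 with Elovl6 (r = 0.49, rho = 0.44, adjusted permutation p = 0.0418) and Elovl2 with Elovl5 (r = 0.42, rho = 0.43, adjusted permutation p = 0.0433). Elovl5 and Elovl6 thus went together between mice of 1 time, although their fitted peaks lie apart. Of these 4, 3 rest on single libraries or on scaling. Leaving out 1 of 48 libraries ended the call of Elovl2 with Elovl5 in 14 cases and of Elovl3 with Elovl6 in 8. Over all 48 such fits r ran from 0.35 to 0.47 and from 0.39 to 0.53. The call of Elovl3 with Elovl5 ended without WT_4h replicate 1 (adjusted permutation p = 0.0506). Without TMM scaling factors Elovl3 with Elovl5 was at r = 0.44 (adjusted permutation p = 0.0509) and Elovl3 with Elovl6 at r = 0.45 (0.0695). With Srebf1 the relations called were those of Fads1 (r = 0.74, rho = 0.75), Fads2 (r = 0.51, rho = 0.54) and Elovl1 (r = 0.51, rho = 0.45). Scd1, also known as an SREBP-1 target, had r = −0.32 and rho = −0.36 with Srebf1 (adjusted permutation p = 0.0928). Elovl6 (r = −0.39, rho = −0.41) and Elovl2 (r = −0.38, rho = −0.38) lay lower still. By r neither was called (adjusted permutation p = 0.0829 and 0.0663). By rho Elovl6 passed and Elovl2 did not (adjusted permutation p = 0.0402 and 0.0740). Srebf1 itself had an r of 0.69 with the GC slope.

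With the GC trend regressed out of every gene, an alternative chosen after seeing the data, 6 relations were called and 4 of them were among the 10: Elovl5 with Elovl6 (r = 0.67), Elovl3 with Elovl5 (0.51), Elovl2 with Elovl5 (0.49) and Fads1 with Srebf1 (0.43). The relation of Fads1 with Fads2 was at r = 0.30 (adjusted permutation p = 0.312), Elovl1 with Fads2 at 0.24 (0.312) and Elovl1 with Fads1 at −0.05 (0.955). Those of Elovl1 with Elovl2 (r = 0.38) and Elovl3 with Fads2 (r = 0.40) were called only in this form, with adjusted permutation p = 0.0333 and 0.0481.

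**Figure D4:**
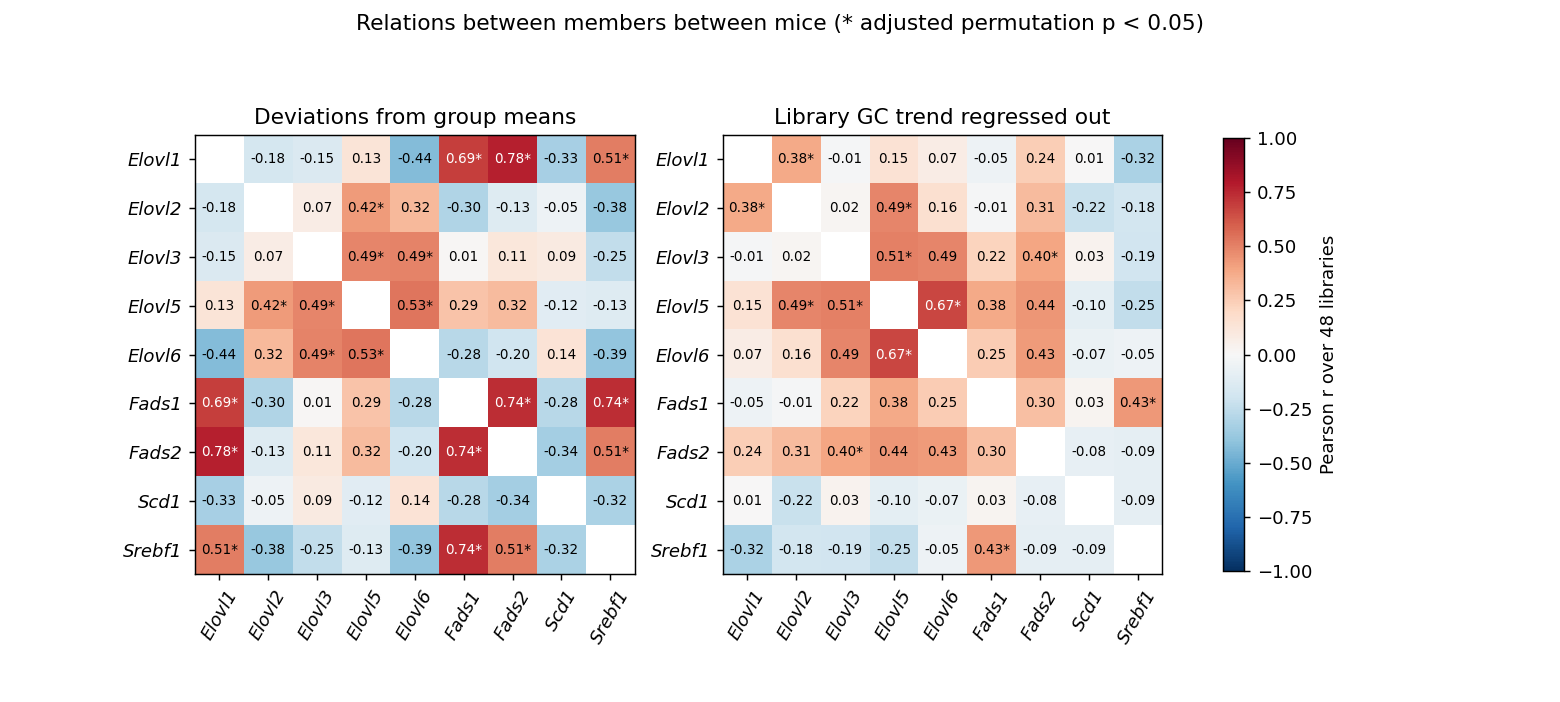
Pearson's r between members, and with Srebf1, over deviations of 48 libraries from their group means (left) and after regressing out the GC trend of the library (right), with an asterisk at adjusted permutation p under 0.05. The block of Elovl1, Fads1 and Fads2 on the left, with r of 0.69 to 0.78, falls to −0.05 to 0.30 on the right, and Elovl5 with Elovl6 goes from 0.53 to 0.67.

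Other genes of the pathway were taken from 5 lists. By the same edgeR test over all genes, 0 of 5 other elongases and desaturases, 0 of 10 genes of the elongation cycle and its electron chain, 0 of 13 of substrate supply and activation, 0 of 9 of peroxisomal shortening and 0 of 16 regulators were called for KO minus WT over the 6 times, with list medians of −0.04, 0.10, 0.05, 0.09 and −0.04. The 3 genes with the lowest p in the first list were Scd2, a second delta-9 desaturase, at −0.43 ± 0.12 (adjusted p = 0.0669, and 0.0189 to 0.131 over 55 settings, of which 4 called it), Fads3 at −0.21 ± 0.10 (0.280) and Elovl7 at 0.11 ± 0.16 (0.722). For the elongation cycle they were Hsd17b12, the ketoacyl reductase of elongation, at 0.26 ± 0.10 (adjusted p = 0.187), Cyb5r1 at −0.27 ± 0.14 (0.315) and Cyb5, cytochrome b5 itself, at 0.23 ± 0.12 (0.321). Those of substrate supply were Acsl5, an acyl-CoA synthetase, at 0.23 ± 0.09 (adjusted p = 0.199), the citrate carrier Slc25a1 at −0.28 ± 0.16 (0.366) and Acsl3 at 0.16 ± 0.09 (0.374). In the peroxisomal list Scp2 was at 0.22 ± 0.11 and Abcd2 at 0.28 ± 0.15 (adjusted p = 0.272 and 0.352). Among regulators Srebf1 was at −0.54 ± 0.24 (adjusted p = 0.245), the oxysterol receptor gene Nr1h2 at −0.20 ± 0.09 (0.263) and Pparg at 0.19 ± 0.10 (0.334). With the GC trend as a covariate several of these lay nearer to 0: Srebf1 was at −0.13 ± 0.19 (adjusted p = 0.810), Nr1h2 at −0.07 ± 0.06 (0.608), Slc25a1 at −0.01 ± 0.08 (0.967) and Cyb5r1 at −0.12 ± 0.11 (0.688). Cyb5 was at 0.09 ± 0.09 (0.715), Hsd17b12 at 0.17 ± 0.09 (0.360), Acsl3 at 0.10 ± 0.09 (0.645), Scp2 at 0.07 ± 0.07 (0.687) and Abcd2 at 0.10 ± 0.12 (0.771), and Pparg lay farther from 0, at 0.26 ± 0.10 (0.201).

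Rhythms in these lists were named after their values were seen. Among the genes called in WT were Cyb5, Acsl1, Acot1, Acacb and Abcd2, and the regulators Nr1h2, Pparg, Insig2, Insig1 and Thrsp, and in KO Acsl1, Acot1, Acsl4 and Acacb and the regulators Pparg, Hnf4a, Insig2, Insig1 and Thrsp. The first list had 0 of 5 in either genotype. In WT the other lists, in the order given above, had 1 of 10, 3 of 13, 2 of 9 and 5 of 16 called. In KO they had 0 of 10, 4 of 13, 0 of 9 and 5 of 16. Of all genes tested, 16.3% were called in WT and 17% in KO. Insig2, which retains SREBP in the endoplasmic reticulum, had an amplitude of 1.24 ± 0.15 and a peak at 22.8 ± 0.45 h in WT and 1.06 ± 0.12 and 21.3 ± 0.44 h in KO. Its relative Insig1 peaked at 12.5 ± 0.65 h and 12.0 ± 0.86 h, and Thrsp, a lipogenic gene, at 13.2 ± 0.50 h and 12.4 ± 0.54 h. Srebf1 had no called rhythm (adjusted p = 0.759 and 0.675).

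For each member the genes with the most similar pattern over the 12 group means of log2 CPM were found among genes tested with at least 1 CPM. Genes with a predicted-gene name (Gm followed by digits, or ending in Rik) were left out. They were Supt5h, Ruvbl2 and Ppan for Elovl1 (r of 0.98, 0.97 and 0.97), Trappc8, Lap3 and Dtx3l for Elovl2 (0.86, 0.83 and 0.83), and Zfand2a, Lsm10 and Bace1 for Elovl3 (0.92, 0.90 and 0.88). Elovl5 was most like Cldn2, Rfx4 and Cmpk2 (0.96, 0.95 and 0.93), and Elovl6 most like Pdk1, Kdelc2 and Slc22a27 (0.93, 0.92 and 0.92). Genes like Fads1 included Pard6a and Ivd (0.93 and 0.91), Fads2 most like Palld, Slc25a42 and Ppard (0.95, 0.95 and 0.94), and Scd1 most like Cyp3a11, Pcgf6 and Fgl2 (0.90, 0.85 and 0.85). Members were also left out of this search, and none of the genes found is on the lists of the pathway. As the highest r out of all genes searched over 12 points, with depth and GC trend in common, these are descriptions. Among members themselves, the highest r over group means was 0.73, between Elovl2 and Elovl5, and the lowest −0.79, between Elovl1 and Elovl6.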

How the data were processed

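RNA-seq counts per gene were analysed as deposited by the authors, in 1 table of 22354 genes and 48 livers. Per the submitters' processing notes, CASAVA and STAR 2.4.1d were used with the mm9 build. The sources used here give neither the counting rule and its use of strand nor a reason why the deposited count totals are nearly equal. Per the labels' protocols, libraries were made from poly-A RNA with a TruSeq kit and 13 PCR cycles, and 2 were run per lane. Albumin, whose count is marked as high in the deposited table, was left out.

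Genes were kept by edgeR's filterByExpr (minimum count 10, minimum total 15), scaled by TMM and fitted with edgeR 4.0.16's quasi-likelihood test (R 4.3.3). One model had 12 group means and the other a 24 h cosine in each genotype. Fold changes, SE and Benjamini-Hochberg adjusted p-values over 13646 genes come from these fits, the threshold being 0.05. Log2 CPM used a prior count of 2. The edgeR p-values set a difference or rhythm against the spread between mice. In the cosine model that spread also holds any misfit of the curve to the group means. Amplitudes and peaks come from least squares on log2 CPM, and relations between mice from 100000 within-group permutations, adjusted over 36. Scripts were tested on simulated data.

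Alternatives were DESeq2 1.42.0, other size factors, no filter, a replicate block, other prior counts, a 5 degree of freedom time test and leaving libraries out. A shared rhythm, the GC covariate (GENCODE M21 transcripts) and leaving single libraries out of the correlations were added after seeing the data. The members and lists were chosen with earlier results of these data known. Named genes are all members, the 3 lowest p-values of each related list with any gene past the threshold for a genotype effect, and the 3 genes most like each member over group means. Values of 2 genes that this rule names are not reported here.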

Additional observations from a re-analysis of the deposited data

Results flagged for a closer look

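Each set of 4 or 5 livers was checked for a liver far from the rest of its group, 88 sets in all (8 members in 11 groups). In 3 sets the gap to the nearest liver took up most of the range of the group, on the log2 scale, which about 1 set in 20 does by chance. Elovl6 was at 22.4 CPM in WT_0h replicate 1, with the other 3 livers between 32.1 and 33.4. It was at 75.1 CPM in WT_12h replicate 1, with the others between 40.0 and 43.3. Fads2 was at 51.8 CPM in WT_20h replicate 2, with the others between 184 and 216. In each of these 3 livers 1 of the 8 members stood apart in this way.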

How the results depend on the processing

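Same-numbered mice of 1 time were not treated as pairs in the main fits. Of 23 such pairs, 13 had deviations with r over 0.1 (range −0.45 to 0.60), and at 0 times did every pair. At 4 h r ran from 0.05 to 0.60, and whether mice pair at single times was not tested. With a replicate block 127 genes passed for KO minus WT over 6 times in place of 191, and 0 for the interaction in place of 1. At 0, 4 and 16 h 0, 2 and 0 genes passed in place of 2, 5 and 3. In these tests 0 members were called with or without the block, so it had no member call to end. The rhythm tests, which hold the members' calls, were not run with it. With DESeq2 356 genes and 1 member (Elovl5) passed over 6 times, 11 genes for the interaction and 5 for the difference of rhythms. It called 11, 192, 2, 3 and 17 genes at 0, 4, 8, 12 and 16 h. Its WT rhythm test called 2701 genes and 5 members (Elovl1, Elovl3 and Elovl6 besides), in place of 2228 and 2. Without the 3 unusual libraries 303 genes passed over 6 times. Without the filter 122 genes passed over 6 times, and 1821 genes and 1 member for the KO rhythm. The GC covariate gave 4 genes for the interaction, and 4042 genes and 4 members for the WT rhythm in place of 2228 and 2. With it 2912 genes and 1 member were called for the KO rhythm and 3 genes for the rhythm difference. At 0, 4 and 16 h it gave 10, 0 and 13 genes. Any difference among 6 times was called for 1167 genes in WT, in place of 2228, and for 1328 in KO, in place of 2322. It was called for 0 members in each, in place of 2. A shared rhythm was called for 5962 genes and 5 members. With the GC trend regressed out 6 relations passed in place of 10, and Elovl1 with Fads1 (r = −0.0491), Elovl1 with Srebf1 (−0.317) and Fads2 with Srebf1 (−0.0882) changed sign. The cause was not tested. Leaving out 1 library gave 99 to 484 genes and 0 to 1 members over 6 times, and 0 to 3 genes for the interaction. The WT rhythm then had 1876 to 2987 genes and 1 to 4 members. The KO rhythm had 1628 to 3691 genes and 1 to 3 members, and the rhythm difference 1 to 2 genes. At 0, 4, 12 and 16 h 0 to 9, 0 to 3354, 0 to 2 and 0 to 25 genes were called. At 4 h 0 to 2 members were. Groups of 3 to 5 mice limit the single-time tests.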
